A study of Mus musculus with 2 samples.

Results

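The cells described here were those labelled as late mitosis cells with low RNA content: 364 of 12805 mouse neurosphere cells (2.84%) whose deposited cell-cycle position lay from 3.927 to under 4.712 rad on a circle of 6.283 rad. Position was the polar angle that the tricycle method gave each cell from its expression of cell-cycle genes, so the cells were selected on their own expression values and the differences below describe that selection, with no test. Culture 1 contributed 85 of its 5748 cells (1.48%, 95% exact binomial interval 1.18 to 1.83) and culture 2 contributed 279 of its 7057 cells (3.95%, interval 3.51 to 4.43). The intervals cover counting error only, and the mean share over the 2 cultures was 2.72%.

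Single-cell RNA-seq was run on 2 neurosphere cultures, which are free-floating spheres of neural progenitors, derived at embryonic day 14.5 from C57BL/6 wild-type embryos (dorsal telencephalon). Both cultures received EGF and bFGF at 10 ng/ml each in a DMEM-F12 medium with B27 and N2 supplements, and both were passaged repeatedly before droplet capture on the 10x Chromium platform. The cultures had 48 cell barcodes in common, of which 2 belonged to late mitosis cells of culture 2 and 0 to those of culture 1. There was 1 condition, and whether the cultures came from separate embryos or litters was not stated. The study used these cells to build a reference map of the cell cycle, and the late mitosis arc was set here against the arc just before it (3.534 to 3.927 rad, 916 cells) and against the last arc of the cycle (5.498 to 6.283 rad, 4938 cells).

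At the exit from mitosis the anaphase-promoting complex, a ubiquitin ligase switched on by Cdc20 and later by Fzr1 (Cdh1), destroys securin and cyclin B, the chromosomes separate and the cell is cut apart by cytokinesis. Transcription is largely silent while chromosomes are condensed, so mRNA made in G2 phase is inherited or degraded, and each daughter receives a share of the cytoplasm of its mother.

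The label of late mitosis was set beside the levels of Cenpa, the histone H3 variant that marks centromeres, Cdc20, and Arl6ip1, a membrane-shaping protein of the endoplasmic reticulum. The genes lie at chr5:30666777-30674830 (Cenpa, plus strand), chr4:118432901-118437352 (Cdc20, minus strand) and chr7:118118891-118129662 (Arl6ip1, minus strand) in GRCm38. All 3 had a value above 0 in 74 of 85 cells of culture 1 (87.1%) and in 253 of 279 cells of culture 2 (90.7%). In the last arc this held for 2.96% and 4.48% of cells, at a median of 18437 and 13991 unique molecular identifiers (UMIs, counted transcripts) per cell. As cell-cycle genes they could have entered the position, so these values describe the chosen cells and are no independent check of the label. Their mean levels were higher still in the preceding arc, so they do not by themselves part late from earlier mitosis.

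Cdc20 and Top2a, 2 mitotic genes whose levels parted in the late mitosis cells, are shown by the stretch upstream of their start sites, because mitotic genes often carry a cell cycle homology region (CHR, TTTGAA or TTCGAA) and CCAAT boxes there. The sequences came from RefSeq (build GRCm38.p6), both genes lie on the minus strand, and capitals mark CHR and CCAAT matches on either strand (TTCAAA and ATTGG are the reverse of TTTGAA and CCAAT). The Cdc20 stretch, chr4:118437353-118437483, runs from 140 to 10 bases before the start, and the Top2a stretch, chr11:99024190-99024329, from 140 bases before the start to the base next to it.
Cdc20: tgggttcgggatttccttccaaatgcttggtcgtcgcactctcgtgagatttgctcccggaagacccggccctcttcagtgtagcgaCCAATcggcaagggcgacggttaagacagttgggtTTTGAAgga
Top2a: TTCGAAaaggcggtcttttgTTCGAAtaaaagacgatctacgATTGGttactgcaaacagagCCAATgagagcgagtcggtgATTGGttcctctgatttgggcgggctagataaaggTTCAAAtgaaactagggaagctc
Cdc20 had 1 CHR, 18 bases before its start, and a CCAAT box 53 bases before it, with another at 8 bases, outside the stretch shown. Top2a had 3 CHR matches in this stretch, at 140, 120 and 23 bases before the start, with 3 CCAAT matches between them, at 98, 78 and 58 bases. Cenpa had its TTTGAA 17 bases into the transcript, and Arl6ip1 had none on either strand in the window from 250 bases before to 50 after the start. Over all 32851 RefSeq promoters of that length, 17.9% held TTTGAA, 1.56% held TTCGAA, 19.2% held either and 37.4% held CCAAT. A match is a description of the letters only.

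Late mitosis cells held fewer transcripts than the cells of both comparison arcs. Their median was 14111 total UMIs in culture 1 (lowest cell 6647, highest 28772) and 11882 in culture 2 (lowest 6672, highest 44429). The preceding arc had medians of 17831 and 15422, and the last arc 18437 and 13991. In each culture the late mitosis median was thus the lowest of the 3, although the ranges of single cells overlapped widely.

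The mean log2 of total UMIs was lower than in the preceding arc by a difference of -0.50 in culture 1 and -0.33 in culture 2, that is 70.6% and 79.5% of the preceding level (mean difference -0.42 ± 0.12, SD, n = 2 cultures). Against the last arc the differences were -0.40 and -0.15 (mean -0.27 ± 0.17), or 76.0% and 90.0% of its level. The class of cells with the most UMIs among 16 equal classes of position lay at 2.749 to 3.142 rad in culture 1 and at 3.142 to 3.534 rad in culture 2, and the late mitosis cells held 58.1% and 68.4% of its level. A minority of late mitosis cells reached the median of the preceding arc, 15 of 85 (17.6%) and 43 of 279 (15.4%), and 14.1% and 22.6% reached the median of the last arc. The UMI minimum was broad: it fell in the class of 4.712 to 5.105 rad for culture 1, which held 25 cells, and in the class of 3.927 to 4.32 rad for culture 2. Where the late mitosis arc and the preceding arc were both moved 0.157 rad later, the mean difference shrank to -0.11.

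The number of genes detected followed the UMIs. The median was 2892 and 2552 genes per late mitosis cell in cultures 1 and 2, against 3376 and 2940 in the preceding arc and 3312 and 2720 in the last arc. Cells outlying in total UMIs had been removed by the authors, and the part of that filter in these values was not tested.

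**Figure D1:**
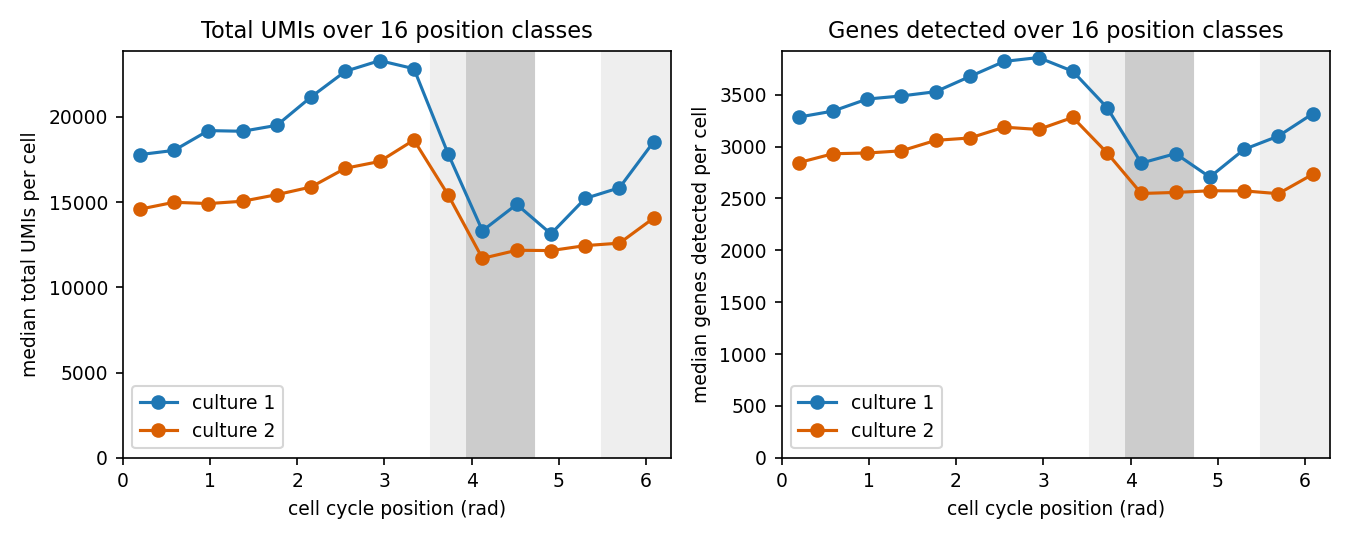
Median total UMIs (left) and median genes detected per cell (right) in 16 classes of cell-cycle position in rad, with 1 line per culture; dark grey marks the late mitosis arc and light grey the preceding and last arcs. Both lines drop from the preceding arc into the late mitosis arc, where the median UMIs were 14111 and 11882, and climb again toward 6.283 rad.

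The cells nearest each edge of the arc are given as a description. In culture 1, the 20 cells just below 3.927 rad had a median of 15810 UMIs and the 20 just above it 14317. In culture 2 those medians were 12332 and 10972. At 4.712 rad the 20 cells inside and the 20 outside had medians of 14773 and 13128 in culture 1 and 12816 and 12264 in culture 2.

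Expression was given as the mean over cells of log2(value + 1), where the value had been scaled to the depth of each cell, so a level states the share of the RNA of a cell and not the amount. Levels were compared within a culture only. A gene was counted as higher or lower where the difference was at least 0.25 in the same direction in each culture, among 8333 genes seen in at least 5% of the cells of each culture. By this rule 3 genes (0.036%) were higher and 140 (1.68%) lower than in the preceding arc, and 213 (2.56%) were higher and 82 (0.984%) lower than in the last arc. The median difference over all counted genes was -0.02 in each comparison. The comparisons share the late mitosis cells, so their counts are not independent. With the size asked of culture 1 alone these counts were 51, 290, 332 and 380, and with culture 2 alone 11, 176, 272 and 115.

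Cenpa was lower in late mitosis than just before it and far above the last arc. Its level had a median of 2.99 over the cells of culture 1 (0 to 4.85) and of 2.90 in culture 2 (0 to 4.35). The means were 2.95 and 2.79, against 3.48 and 3.10 in the preceding arc and 0.28 and 0.39 in the last arc. The differences were -0.42 ± 0.16 from the preceding arc and 2.54 ± 0.19 from the last arc (SD, n = 2 cultures). The last arc was not uniform: its cells from 5.498 to 5.89 rad (89 and 260) had Cenpa at 1.64 and 1.51, and the 1700 and 2889 cells after them had 0.21 and 0.28. Arl6ip1 moved less from the preceding arc, with means of 4.14 and 3.76 against 4.18 and 4.02, and it stood 1.77 ± 0.07 above the last arc, where its means were 2.42 and 1.94. Arl6ip1 was seen in 100% and 99.3% of late mitosis cells and in 97.9% and 80.6% of last arc cells.

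Cdc20, the activator that the anaphase-promoting complex needs at anaphase, had already declined. Its means were 1.96 and 2.20, against 3.19 and 2.71 in the preceding arc and 0.14 and 0.15 in the last arc. The gap to the preceding arc differed between the cultures, -1.23 in culture 1 and -0.51 in culture 2. The 20 cells just below 3.927 rad had Cdc20 at 2.59 and 2.85, and the 20 just above it 2.33 and 2.30. Late mitosis cells with no Cdc20 value were few, as 76 of 85 (89.4%) and 258 of 279 (92.5%) had one above 0. These levels were relative to the RNA of the cell: after multiplication by the UMIs of each cell, the late mitosis cells held 48.7% and 63.2% of the Cenpa of the preceding arc, 65.1% and 63.7% of its Arl6ip1 and 28.8% and 54.4% of its Cdc20.

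Top2a, the topoisomerase that untangles sister chromatids, was the contrast. Its median over late mitosis cells was 0 in both cultures, with a highest cell of 2.14 in culture 1 and 3.07 in culture 2, and 43.5% and 39.1% of cells had any value. Means were 0.54 and 0.65, against 2.07 and 2.12 in the preceding arc and 0.15 in the last arc of either culture. The difference from the preceding arc was -1.503 ± 0.04. The largest drop between neighbouring classes was from 2.07 and 2.12 before 3.927 rad to 0.60 and 0.73 after it. The decline did not sit at that border. The 20 cells just below 3.927 rad already had means of 0.71 and 0.46, and the 20 just above it 0.75 and 0.95.

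**Figure D2:**
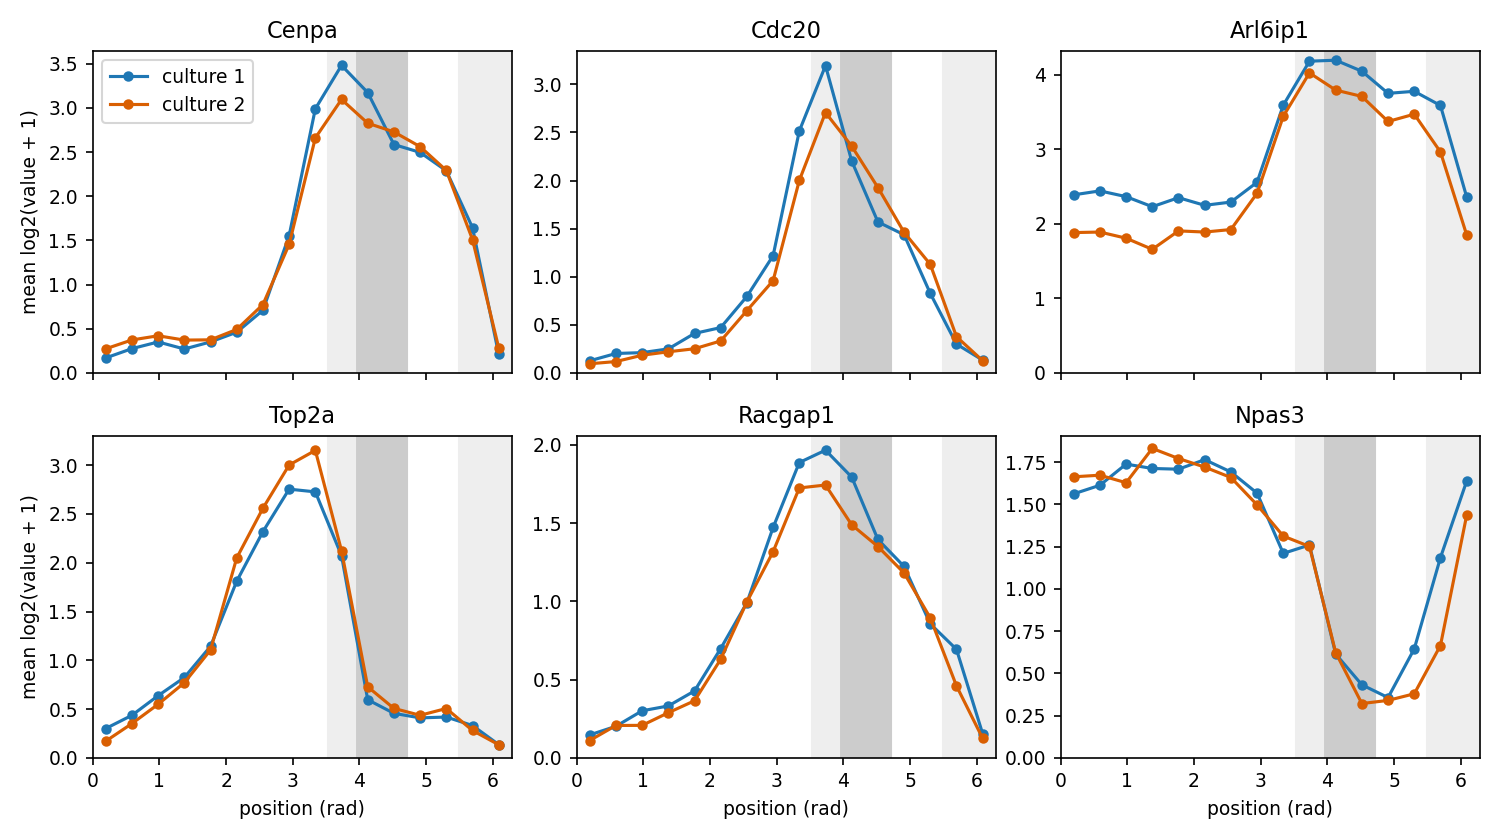
Mean log2(value + 1) of 6 genes in 16 classes of cell-cycle position (rad), with 1 line per culture; dark grey marks the late mitosis arc, light grey the preceding and last arcs. Arl6ip1 stays high through the dark band. Cdc20 and Racgap1 slope down across the band, as does Cenpa, mainly in culture 1. Top2a has dropped at the start of the band, and Npas3 is at its lowest in or just after the band.

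Within the arc the earlier cells (3.927 to 4.32 rad, 53 and 175 cells) and the later cells (4.32 to 4.712 rad, 32 and 104 cells) differed less in some genes than in others. In culture 1 Cdc20 had 2.20 in the earlier and 1.57 in the later cells, and in culture 2 it had 2.36 and 1.93. Cenpf, a kinetochore protein, had 1.69 and then 1.03 in culture 1, and 1.51 and then 0.93 in culture 2. Arl6ip1 had 4.19 and 4.04, and 3.79 and 3.71, a smaller step than that of Cdc20 or Cenpf in each culture. Cenpa had 3.17 and then 2.59 in culture 1, a step near that of Cdc20, and 2.83 and then 2.73 in culture 2. The UMIs did not decline between them: the medians were 13323 and 14871 in culture 1 and 11704 and 12178 in culture 2.

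Some of the kinases and cyclins that drive entry into mitosis were lower than in the preceding arc, and some were still above the last arc. Of 13 counted genes, 6 were lower than in the preceding arc and 0 higher (background 1.68% and 0.036%). Against the last arc 4 were higher and 0 lower (background 2.56% and 0.984%). These shares over all counted genes are the background for each list below. Cdk1, the mitotic kinase, had levels of 0.80 and 0.93 against 2.26 and 2.05 just before and 0.18 and 0.17 in the last arc. Ccnb1, its cyclin B1 partner, had 1.571 and 1.499 against 2.90 and 2.38 just before, and was 1.42 ± 0.05 above the last arc. Ccnb2, cyclin B2, was 0.92 ± 0.01 above the last arc, while its differences from the preceding arc were -0.44 and -0.06 and did not reach the size in culture 2. Aurka, the kinase of the spindle poles, was at 0.13 and 0.34 against 1.27 and 1.17 just before and 0.05 and 0.04 in the last arc. Its level was thus near that of the last arc in culture 1, while in culture 2 it stood 0.30 above it.

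Among genes of the anaphase-promoting complex and its ubiquitin pathway, 5 of 15 counted genes were lower than in the preceding arc, 0 higher, and 4 were higher than in the last arc. Ube2c, which loads ubiquitin for the complex, was at 1.87 and 1.95, between 3.29 and 3.28 before and 0.23 and 0.29 after. Cks2, a small Cdk-binding protein, had the most negative mean difference of any listed gene from the preceding arc, -1.68 ± 0.40. Pttg1, which encodes securin, had 0.61 and 0.75 in late mitosis and 0.59 and 0.69 just before, a difference of 0.04 ± 0.04 that was under the size.

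Centromere and kinetochore genes formed the list with the most lower calls against the preceding arc, 16 of 21, with 0 higher and a median difference of -0.46. In the comparison with the last arc 9 were higher and 0 lower. Cenpf fell from 2.92 and 2.81 to 1.44 and 1.29, and Cenpe, the kinetochore motor, from 1.91 in each culture to 0.46 and 0.64. Cenpm and Cenpw, which belong to the constitutive centromere network, were under the size against the preceding arc: Cenpm was at 1.57 and 1.65 against 1.72 and 1.77, and Cenpw at 1.48 and 1.35 against 1.60 and 1.36. They stood 1.16 ± 0.01 and 0.99 ± 0.18 above the last arc.

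The 4 genes of the chromosomal passenger complex, which corrects attachments and moves to the spindle midzone at anaphase, were all lower than in the preceding arc, but they parted in how much was left. Birc5 (survivin) was at 1.88 and 1.72 and Cdca8 (borealin) at 2.05 and 2.28, which were 1.61 ± 0.14 and 2.02 ± 0.14 above the last arc. Aurkb, the kinase of the complex, was at 0.05 and 0.11 and Incenp, its scaffold, at 0.17 and 0.24, and their differences from the last arc, 0.05 ± 0.05 and 0.14 ± 0.06, were under the size. Measured against its own level in the last arc, each gene of the complex thus had its own difference, from 0.05 for Aurkb to 2.02 for Cdca8. Aurkb was low in the preceding arc too, at 0.64 in each culture, which limits its difference. Before the log, its mean value was 1.81 and 4.64 times that of the last arc, against 28.5 and 23.2 times for Cdca8.

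Of 21 counted spindle genes, 14 were lower than in the preceding arc and 11 higher than in the last arc, with 0 in the other directions. Tacc3, which stabilizes spindle microtubules, kept levels of 1.534 and 1.247 against 1.66 and 1.27 just before. Tpx2, which activates Aurka on the spindle, was at 1.452 and 1.662 against 2.38 and 2.31. Nusap1, a microtubule bundler, was at 0.43 and 0.33 against 1.504 and 1.452.

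For cytokinesis 8 of 11 counted genes were lower than in the preceding arc (background 1.68%) and 2 were higher than in the last arc (background 2.56%). Racgap1, a centralspindlin subunit, was at 1.64 and 1.44, 1.37 ± 0.13 above the last arc and 0.31 ± 0.01 below the preceding one. Prc1, the bundler of the midzone, was at 0.55 and 0.60 against 1.99 and 1.88 before. Kif20b, a kinesin of late cytokinesis, was at 0.06 and 0.16 against 0.94 and 0.76 before and 0.03 and 0.02 in the last arc. The difference from the last arc was under the size, although the mean value before the log was 2.01 and 8.23 times that of the last arc.

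**Figure D3:**
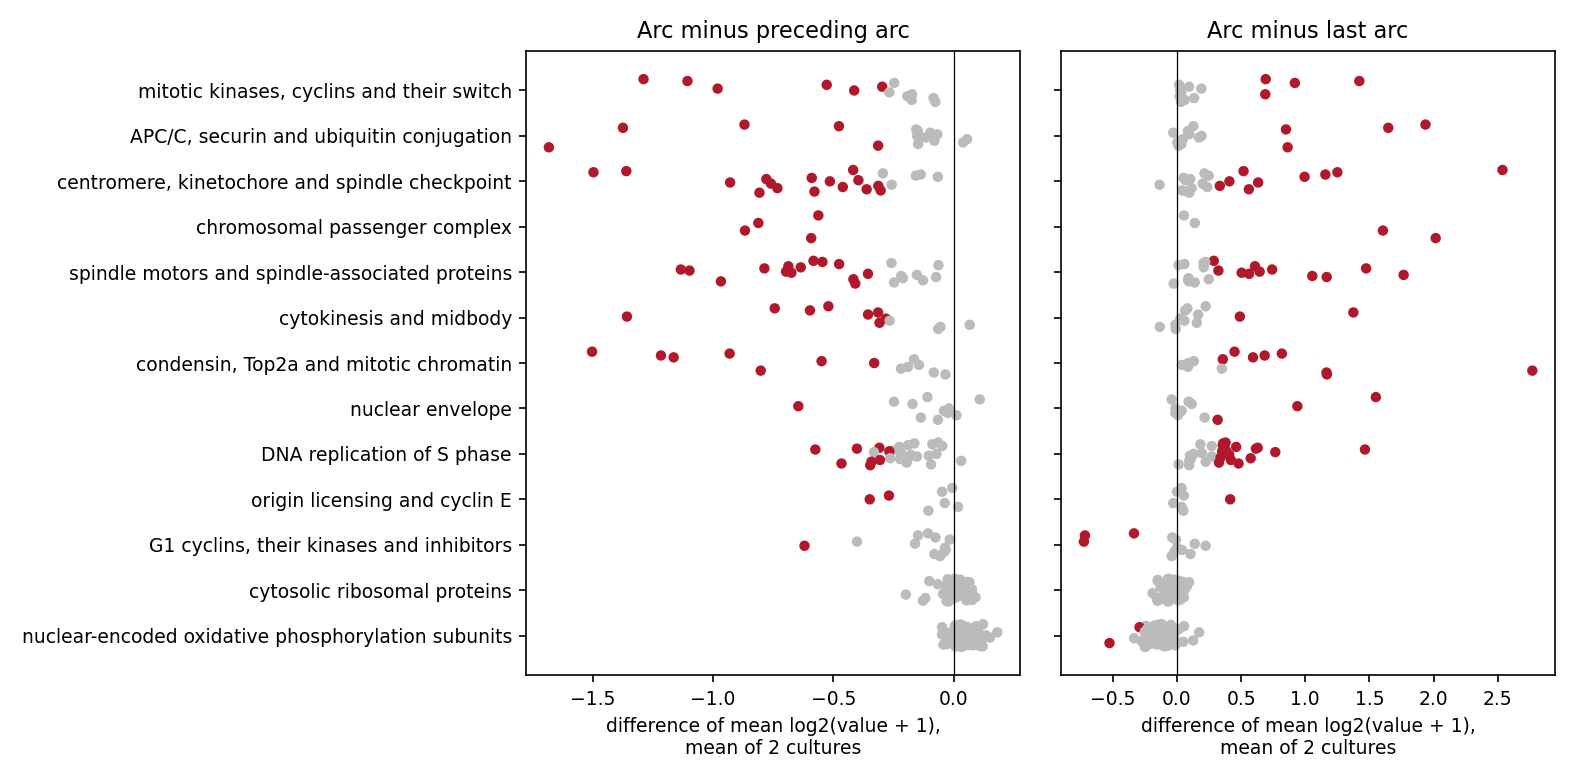
Difference of mean log2(value + 1) between the late mitosis arc and the preceding arc (left) or the last arc (right), as the mean of 2 cultures; each point is a gene in the list named on the vertical axis, red where the difference was at least 0.25 in the same direction in each culture. Red points lie to the left of 0 on the left panel in the mitotic lists, for example 16 of 21 centromere genes, and the 60 ribosomal protein genes are grey in both panels.

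Of 13 counted genes for condensin and mitotic chromatin, 7 were lower than in the preceding arc and 8 higher than in the last arc. Smc2 and Smc4, the condensin ATPases, were at 0.92 and 1.04 and at 1.015 and 0.9999, which was lower than just before by a mean difference of -1.22 and -1.16. Hmgb2, a DNA-bending chromatin protein, had the largest difference from the last arc among the listed genes, 2.77 ± 0.13, at 3.52 and 3.87 against 0.842 and 1.005. Its paralogue Hmgb1 was at 4.83 and 4.53, against 4.90 and 4.63 just before. H2afv, which encodes a histone H2A.Z variant, was at 3.06 and 2.99 against 3.03 and 3.09.

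Genes of the nuclear envelope, which re-forms in telophase, were mostly under the size. Of 9 counted genes, 1 was lower than in the preceding arc (background 1.68%) and 3 were higher than in the last arc (background 2.56%). Lmnb1, lamin B1, was at 2.26 and 1.82 against 2.32 and 1.98 before and 0.50 and 0.48 after. Tmpo, the lamina-associated protein LAP2, had fallen further, from 2.087 and 2.005 to 1.56 and 1.24. Among the cytoskeletal genes, Stmn1, which destabilizes microtubules, stayed at 3.996 and 3.889 against 4.14 and 4.01, while the tubulin gene Tubb5 was lower by a mean difference of -0.55 ± 0.01.

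To compare how far each gene had gone from its mitotic to its later level, 53 genes were taken whose level in the preceding arc exceeded that in the last arc by at least 1 in each culture, a choice that did not use the late mitosis cells and was made after the data had been seen. The share of that difference still present in late mitosis ran from 16.6% (Aurka) to 97.3% (H2afv) with a median of 65.3%, and the median was 63.3% in culture 1 and 69.5% in culture 2. More than 75% was present in both cultures for 14 genes, among them Cenpa (86.1%), Arl6ip1 (92.5%), Stmn1 (93.0%), Lmnb1 (93.1%), Hmgb1 (93.2%), Tacc3 (94.7%), Cenpm (89.5%) and Racgap1 (81.4%). Aurka had 6.2% in culture 1 and 26.9% in culture 2. The lowest means after Aurka belonged to Nusap1 (22.6%), Top2a (23.0%), Prc1 (26.6%), Cenpe (27.6%) and Smc4 (33.7%). Cdc20, at 69.9%, lay between these ends, with 59.7% in culture 1 and 80.1% in culture 2. These shares are on the log2(value + 1) scale, which treats low and high levels differently, and the order was not examined on another scale. Before the log, the mean Cdc20 value was 0.43 and 0.72 times that of the preceding arc.

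**Figure D4:**
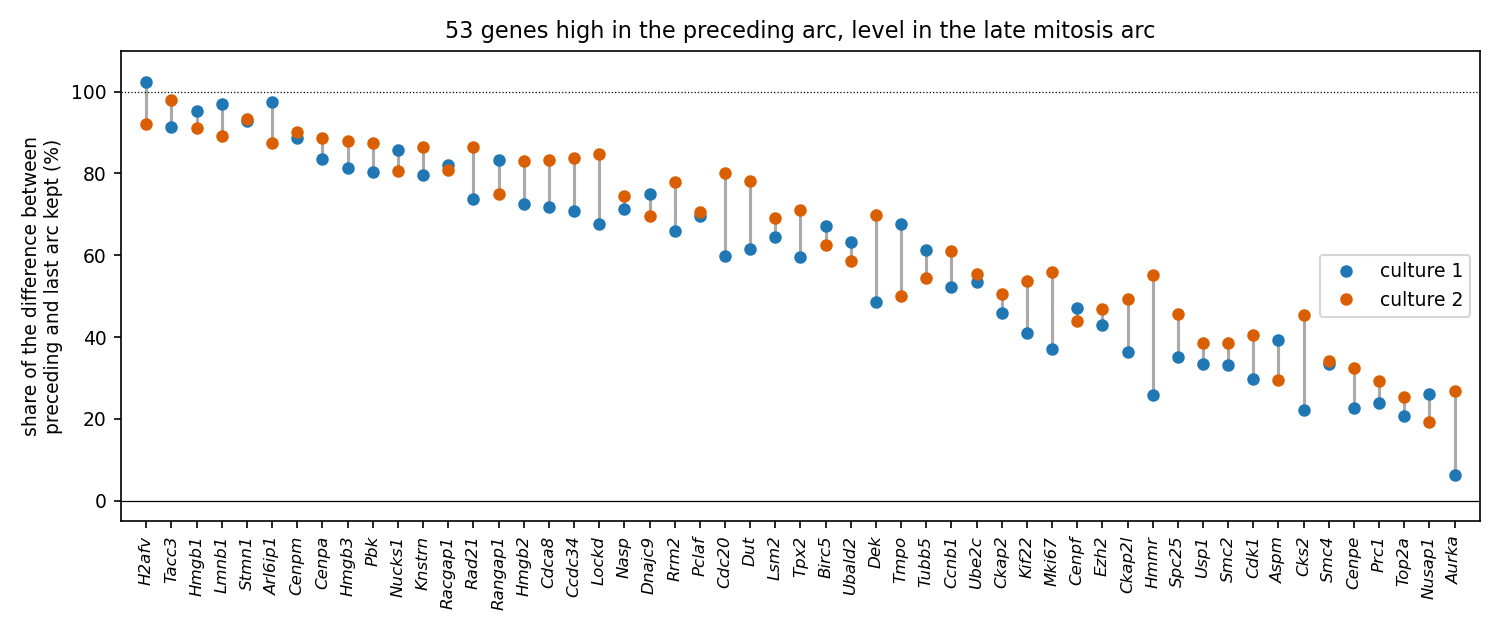
Share (%) of the difference in mean log2(value + 1) between the preceding and the last arc that was still present in late mitosis cells, for 53 genes in order of the mean, with 1 point per culture joined by a grey line. The genes form a gradual series from H2afv (97.3%) to Aurka (16.6%).

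RefSeq promoters were matched for 45 of these 53 genes, and 28 of the 45 (62.2%) held TTTGAA and 38 (84.4%) held CCAAT between 250 bases before and 50 bases after the start. Of the 8318 genes of the expression table with a promoter, 14.1% held TTTGAA and 43.4% held CCAAT. Both Cdc20 and Top2a are among the 28.

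Many of the DNA replication genes, which peak in S phase, were still above the level of the last arc. Of 27 counted genes, 8 were lower than in the preceding arc and 16 were higher than in the last arc, with 0 in the other directions. Rrm2, the regulated subunit of ribonucleotide reductase, was at 1.74 and 1.91, against 2.45 and 2.35 before and 0.36 in each culture after. Pcna, the sliding clamp, was at 1.337 and 1.298 against 1.63 and 1.62 before and 0.69 in each culture after. Mcm2, of the replicative helicase, was at 0.65 and 0.44, a difference of -0.06 ± 0.01 from the preceding arc. In the licensing list 2 of 6 were lower than in the preceding arc (background 1.68%). Gmnn (geminin), which blocks licensing until the end of mitosis, was 0.41 ± 0.04 above the last arc.

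Cyclin D and inhibitor genes of G1 were mostly below their level in the last arc or under the size. Of 12 counted genes for G1 cyclins, their kinases and inhibitors, 3 were lower than in the last arc and 0 higher (background 0.984% and 2.56%). Against the preceding arc 1 was lower (background 1.68%). Ccnd2, cyclin D2, was at 3.95 and 3.88 against 4.61 and 4.66 in the last arc and 4.15 and 3.98 just before. Cdkn1a, the p21 inhibitor, differed from the last arc by -1.09 in culture 1 and -0.37 in culture 2. It was the 1 gene of 9 in the p53 target list to reach the size (background 0.984%). Cdkn2c, the p18 inhibitor, was instead lower than in the preceding arc, at 0.78 and 0.82 against 1.41 and 1.43.

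Outside the lists, 66 genes were lower and 3 higher than in the preceding arc, and 150 were higher and 77 lower than in the last arc. The 3 higher genes were Map1b, a microtubule-associated protein of neural cells (0.35 ± 0.03), Mt2, a metallothionein (0.39 ± 0.17), and Psmc6, an ATPase of the proteasome (0.32 ± 0.09). Multiplied by the UMIs of each cell, Map1b was at 96.7% and 97.2%, Mt2 at 114% and 87.1% and Psmc6 at 84.8% and 105% of the preceding arc. Pclaf, a partner of Pcna, was lower than in the preceding arc by -0.76 ± 0.02 and higher than in the last arc by 1.78.

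Npas3, a neural transcription factor gene (chr12:53248677-54072175, plus strand, GRCm38), was lower in late mitosis than in either comparison arc. Its means were 0.55 and 0.51, against 1.259 and 1.251 in the preceding arc and 1.61 and 1.37 in the last arc. The differences were -0.73 ± 0.02 and -0.96 ± 0.15, and 35.3% and 30.1% of late mitosis cells had a value, against 73.6% and 70.0% before and 85.7% and 71.3% after. The lowest of the 16 classes for Npas3 was 4.712 to 5.105 rad in culture 1 and 4.32 to 4.712 rad in culture 2. Part of the fall lay inside the preceding arc. The 20 cells just below 3.927 rad had Npas3 at 0.86 and 0.77, and the 20 just above it 0.73 and 0.62. Sparc and Mxd4 were lower than in the last arc but close to the preceding arc: Sparc, a matrix-binding glycoprotein, was at 1.11 and 1.15 against 1.10 and 1.14 before and 1.73 and 1.59 after, and Mxd4, a partner of Max, at 0.50 and 0.66 against 0.47 and 0.69 before and 1.04 and 1.10 after.

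Ribosomal protein and respiratory chain genes stayed mostly under the size. None of 60 counted ribosomal protein genes reached the size in either comparison, with medians of 0.01 against the preceding arc and -0.03 against the last arc. Of 71 genes for oxidative phosphorylation, 0 reached it against the preceding arc, and 2 were lower than in the last arc, where the median was -0.14. Over all counted genes 1.68% were lower and 0.036% higher than in the preceding arc, and 0.984% lower and 2.56% higher than in the last arc. The counts of both lists were near these shares, so the counts do not set either list apart from other genes.

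Cell type markers were also compared between the arcs. Over all counted genes 1.68% were lower and 0.036% higher than in the preceding arc, and 0.984% lower and 2.56% higher than in the last arc. Against these shares 0 calls is the ordinary count for lists this short. Of 8 counted radial glia genes 0 reached the size in either comparison, with Fabp7 at 6.50 and 6.31, Vim at 4.66 and 4.62 and Nes at 2.14 and 2.03, while the transcription factor genes Hes1 and Pax6 were low, at 0.56 and 0.70 and at 0.11 and 0.13. Pax6 had 0.31 and 0.30 in the preceding arc, a difference under the size. The summed values of the 8 genes were 149 and 139 in late mitosis, 138 and 124 in the preceding arc and 151 and 146 in the last arc. The 3 neuronal genes in the table were below the filter and near 0, with summed values of 0.0481 to 0.156 in any arc and culture. The oligodendrocyte progenitor list, of which 2 genes were counted and 0 reached the size, summed to 6.5 and 6.1 in late mitosis, 6.9 and 6.4 before and 6.4 and 5.8 after, with Olig2, its transcription factor, at 2.50 and 2.53. The astroglial list (5 genes, 0 reaching the size) summed to 3.4 and 3.7 in late mitosis, 2.3 and 3.7 before and 5.3 and 8.4 after, and the part of this in the differences was not tested. The listed markers of intermediate progenitors, microglia, endothelium and mural cells, and red blood cells were absent from the expression table, so these cell types could not be assessed.

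Stage calls deposited with the cells disagreed about late mitosis. Seurat called G2M in 78 of 85 (91.8%) and 266 of 279 (95.3%) cells, while cyclone called G1 in 73 of 85 (85.9%) and 194 of 279 (69.5%). In the preceding arc cyclone called G1 in 16.7% and 16.4%, and in the last arc it called G1 in 100% of cells, with Seurat at 99.9% and 99.3%. SchwabeCC, a 5-stage scheme that leaves uncertain cells unassigned, split the late mitosis cells into M.G1 (34 and 95), G2.M (23 and 104) and no stage (26 and 77), with 2 and 3 in other stages. Mean levels of both Cenpa and Cdc20 were below those of G2.M cells in M.G1 cells of each culture: Cenpa had 2.94 against 3.19 in culture 1 and 2.74 against 2.90 in culture 2, and Cdc20 had 1.86 against 2.09 and 2.02 against 2.44. All 3 methods read the same cells' expression. SchwabeCC picks the stage whose gene list scores highest, so the gap between M.G1 and G2.M cells is no independent finding.

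**Figure D5:**
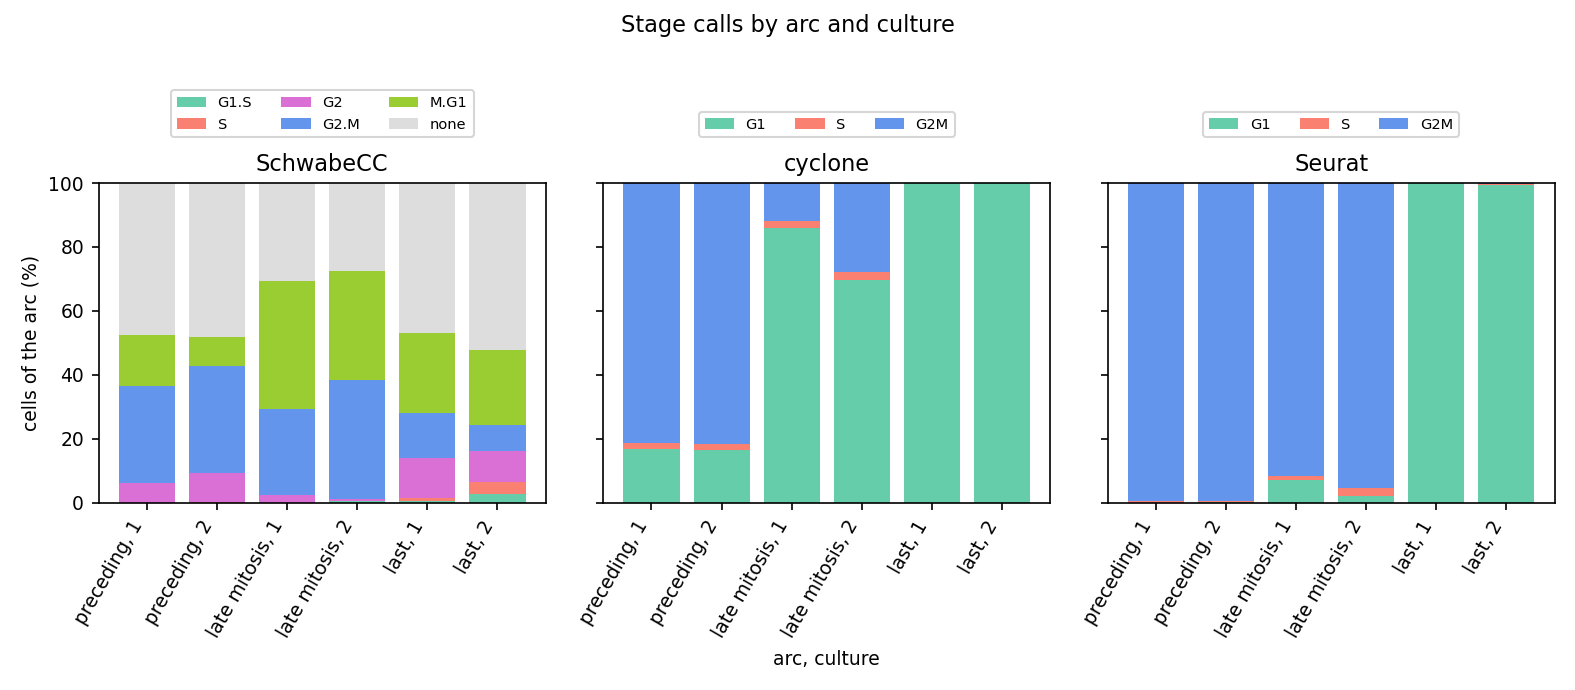
Share (%) of cells with each stage call of SchwabeCC, cyclone and Seurat in the preceding, late mitosis and last arcs of cultures 1 and 2, as stacked bars. Late mitosis cells are mostly G2M for Seurat (91.8% and 95.3%) and mostly G1 for cyclone (85.9% and 69.5%).

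Depth moved with position, and shallower cells have more zeros, so the gene differences were repeated on cells of like depth, between the 25th and 75th percentile of the late mitosis UMIs in each culture (43 and 139 late mitosis cells). Then 99 genes were lower than in the preceding arc, against 140, and 242 higher and 64 lower than in the last arc, against 213 and 82. The 3 genes higher than in the preceding arc became 16. The expression table also carried a scale that differed between the cultures from gene to gene, so a level in culture 1 was never set against the same gene in culture 2.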

How the data were processed

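RNA of 12805 single cells from 2 cultures was measured. The authors quantified reads with alevin (Salmon 1.3.0) on GRCm38, used the spliced counts, removed outlying cells (UMIs, genes, mitochondrial share, doublet score) and mitochondrial genes, and integrated the cultures with Seurat 3.2.2, per the submitters' processing notes and the study's methods. The labels name kit v2 and the methods v3. The deposited expression signal is linear and scaled to cell depth, and which steps it went through is not stated. The deposited total UMIs are sums of estimated counts per cell, and they were rounded only for the values printed.

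Here 10662 of 10666 gene IDs were named from the reference table, and cells were grouped by deposited position (Python 3.11.15, numpy 2.4.6, pandas 2.3.3, scipy 1.17.1). Arcs were compared within a culture on the mean log2(value + 1), with calls from 0.25 in each culture, for genes above 0 in 5% of the cells of each culture. Position came from the same cells and there were 2 cultures, so no test was run. The call step was tested on simulated data, made of permuted values with large changes put in. Smaller changes, near the size used for calls, were not covered. The members and gene lists were chosen with earlier results of these data known. Genes were named by rule: the 3 markers, up to 4 highest and 2 lowest differences per list and comparison, and the 10 most changed outside the lists in each direction. The 53 genes for the share kept were added after seeing the data. Single cells stood at 5957 to 103199 UMIs, and the depth limits low genes. Alternatives were the arc's limits, each culture alone, the median, staged cells, the size, the scale, the filter and cells of like depth.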

Additional observations from a re-analysis of the deposited data

How the results depend on the processing

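Of 60 repeats under other settings, 39 moved by less than the spread between cultures or, for counts of genes, by 1.5 times at most, and 21 moved further. For the share of cells and the UMI differences, leaving out 1 of 2 cultures shifts the mean by less than that spread by construction. Those repeats could not count as moved and are no sign of stability. The UMI differences kept their sign under each alternative run, while the balance of calls against the last arc, 213 higher and 82 lower, turned to 332 and 380 without culture 2. With both arcs 0.157 rad later, the log2 UMI difference from the preceding arc was -0.11, and 1 gene was higher and 66 lower than in that arc. A size of 0.5 left 0 higher and 47 lower than in the preceding arc, and 74 higher and 5 lower than in the last arc. On log2 of the mean value plus 0.1, with a size of 0.5, 8 were higher and 241 lower than in the preceding arc, and 159 lower than in the last arc. With log2(value + 0.5) these counts were 6, 276 and 199. Among cells of like depth 16 genes were higher than in the preceding arc. With 1 culture left out, which asks the size of the other culture only, 11 to 51 genes were higher and 176 to 290 lower than in the preceding arc, and 272 to 332 higher and 115 to 380 lower than in the last arc. The share in the arc was then 1.48% to 3.95%, and the UMI differences were -0.50 to -0.33 and -0.40 to -0.15. The median share kept, set up after seeing the data, was 58.6% on log2 of the mean value plus 0.1 and 72.0% among cells of like depth, against 65.3% as reported. Culture 1 gave 85 cells, so its levels rest on fewer cells. The arcs were paired by culture throughout, since each difference was taken within a culture, and no further fit with a replicate block was made.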
